A study of Mus musculus with 18 samples.

Results

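The genes described here encode the subunits and assembly factors of the mitochondrial respiratory chain and of the ATP synthase, in RNA of brain endothelial cells from mice with or without endothelial Pdcd10. Members were all genes in the count table whose symbol begins with Nduf, Sdh, Uqcr, Cox4, Cox5, Cox6, Cox7, Cox8, Atp5, mt-Nd, mt-Co, mt-Cyt or mt-Atp, without pseudogene symbols and with at least 10 counts summed over the 18 libraries. The rule gave 112 of the 57010 genes in the table: 99 encoded in the nucleus and 13 in the mitochondrial genome. The rule itself uses symbols and summed counts, and both sets are described apart.

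RNA came from brain endothelial cells of mice at postnatal day 57. The KO animals carried floxed alleles of Pdcd10 (Pdcd10fl/fl), the driver Slco1c1-iCreERT2 and the reporter Aldh1l1-EGFP/Rpl10a, and 4-hydroxytamoxifen (50 µg, into the stomach on postnatal day 1) induced deletion of Pdcd10 by a Cre that brain endothelium expresses. The flox animals were Pdcd10fl/fl with the same reporter and without the Cre. The 4-hydroxytamoxifen dose and day are recorded at the level of the study, alike for flox and KO libraries. Uninjected Cre carriers also served the study as controls, and the labels do not say whether any flox library came from them. Both groups carried the floxed alleles and the astrocyte reporter. Mice were kept at 21% oxygen (normoxia, 4 flox and 5 KO libraries) or at 12% oxygen for 7 days (hypoxia, 4 flox and 5 KO libraries). The design asks how loss of Pdcd10, the gene of the cavernous malformation protein CCM3, and low oxygen change these cells. Libraries are named by group and the replicate number of the label. No label says that replicates are separate animals, so the tests measure the spread between these libraries.

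The respiratory chain passes electrons from NADH and succinate through complexes I, II and III to complex IV, where oxygen is reduced, and complex V makes ATP from the proton gradient that results. Most subunits are nuclear genes whose proteins are imported, while the mitochondrial genome encodes a small core, transcribed as long precursors from which the mRNAs are cut. Brain endothelium draws much of its ATP from glycolysis, and in low oxygen cells are known to lower respiration in part through hypoxia-inducible factors, which switch certain subunit isoforms.

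Facts about the libraries bear on every result. Total counts were 17.9 to 31.2 M per library. Pdcd10 was at 30.6 to 60.9 CPM (read counts relative to the TMM-scaled library total) in the 8 flox libraries and at 16.3 to 25.3 CPM in the 10 KO libraries, without overlap. All 10 endothelial markers (Pecam1, Cldn5 and others) were present in every library, with a summed level of 17190 to 25721 CPM. The libraries normoxia flox 4 and normoxia KO 4 stood apart with summed neuron markers of 2273 and 1273 CPM, against 28.2 to 116.7 CPM in the other 16. Their astrocyte markers (2199 and 1224 CPM, against 91.3 to 261.9 CPM) and microglia markers (198.3 and 126.6 CPM, against 20.4 to 68.1 CPM) stood apart too. Normoxia flox 4 also had the lowest endothelial sum (17190 CPM). Both are called neuron-marker libraries below for short. Immediate early genes such as Fos and Jun, which respond to tissue dissociation, had a score (mean log2 CPM of 14 genes) between 6.80 and 10.7. The score exceeded 10 in 9 libraries, namely replicate 1 of normoxia flox, replicates 1, 2 and 5 of normoxia KO, replicate 2 of hypoxia flox and replicates 2 to 5 of hypoxia KO. Y-linked Ddx3y was at 135.3 CPM or more in each hypoxia flox library, whereas Xist was at 669.5 CPM or more in 4 of the 5 hypoxia KO libraries. Sex and genotype thus went largely together in hypoxia. The sex signal (log2 CPM of Y-linked genes minus that of Xist) was 7.25, -13.3, -4.26 and -3.11 in normoxia flox 1 to 4. In hypoxia flox it was 4.67 to 8.27, so sex also differed with oxygen in flox. Markers of other cells differed between KO and flox too. Pericyte markers passed as higher in 3 of 10 in normoxia and 6 of 10 in hypoxia, lymphocyte markers in 4 and 5 of 6, and smooth muscle markers as lower in 7 and 6 of 8. Of the endothelial markers 1 was higher and 2 lower in normoxia, and 1 was higher in hypoxia. In hypoxia 1 neuron and 1 astrocyte marker were lower and 2 choroid plexus markers higher. The oligodendrocyte, microglia, red cell and immediate early lists gave no call. The part of these cells in the results was not tested.

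RefSeq promoter sequences (build GRCm38.p6) are shown for the 4 complex I genes that passed the test between KO and flox in normoxia, since the results for nuclear members turn on them. Each is the 250 bases before the annotated start, read 5′ to 3′ on the gene's strand, with matches to the motif of NRF1, a factor known for nuclear respiratory chain promoters, in capitals. Ndufa8 is at chr2:36049339-36049588 (minus strand), Ndufab1 at chr7:122101849-122102098 (minus), Ndufb2 at chr6:39592315-39592564 (plus) and Ndufaf7 at chr17:78936885-78937134 (plus).
Ndufa8: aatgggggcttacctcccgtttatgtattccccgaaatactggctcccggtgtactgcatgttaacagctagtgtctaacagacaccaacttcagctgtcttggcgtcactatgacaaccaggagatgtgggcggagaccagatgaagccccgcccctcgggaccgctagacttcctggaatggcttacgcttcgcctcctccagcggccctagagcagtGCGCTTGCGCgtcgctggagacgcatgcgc
Ndufab1: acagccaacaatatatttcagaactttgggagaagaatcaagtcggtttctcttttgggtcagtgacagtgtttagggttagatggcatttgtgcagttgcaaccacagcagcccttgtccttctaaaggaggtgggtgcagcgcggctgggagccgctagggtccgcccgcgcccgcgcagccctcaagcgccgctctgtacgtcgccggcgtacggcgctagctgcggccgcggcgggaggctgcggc
Ndufb2: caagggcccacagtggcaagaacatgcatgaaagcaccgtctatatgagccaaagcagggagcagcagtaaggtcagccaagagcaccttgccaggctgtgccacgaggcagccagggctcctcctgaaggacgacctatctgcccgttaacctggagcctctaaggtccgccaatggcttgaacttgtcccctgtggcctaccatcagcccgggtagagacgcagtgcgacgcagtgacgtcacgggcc
Ndufaf7: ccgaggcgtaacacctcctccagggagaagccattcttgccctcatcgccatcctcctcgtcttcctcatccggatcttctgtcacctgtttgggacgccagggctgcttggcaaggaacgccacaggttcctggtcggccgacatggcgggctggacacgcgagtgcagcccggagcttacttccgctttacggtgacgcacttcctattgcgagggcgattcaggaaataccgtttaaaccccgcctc

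The window of Ndufa8 held a match to the NRF1 motif (on either strand), and those of Ndufab1, Ndufb2 and Ndufaf7 held none. Promoters were matched for 77 of the 99 nuclear members, in 82 windows. The NRF1 motif was in 18.3% of these windows, against 3.74% of all 32851 windows of the same length. An ETS motif (CCGGAAG), as bound by GABP, was in 19.5% against 6.91%. A YY1 motif was in 1.22% against 0.301%. ACGTG, the core to which hypoxia-inducible factors bind, was in 19.5% against 16.6%. None of the ETS, YY1 or ACGTG letters occurred in the 4 windows printed. These are matches of letters, with no binding measured.

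Levels were first compared between genes by the deposited RPKM (reads scaled to gene length and library size). Mitochondrially encoded mRNAs were the most abundant members by far. Median RPKM over the 18 libraries was highest for the complex IV core subunits mt-Co1 (4375) and mt-Co2 (3668) and for the complex V subunit mt-Atp6 (3180). It was 2409 for mt-Co3 and 2064 for mt-Cytb, the core of complex III. The complex I subunits spanned 1638 for mt-Nd1 to 356.6 for mt-Nd6, the gene encoded on the other strand from the rest. mt-Atp8 and mt-Nd4l overlap mt-Atp6 and mt-Nd4 in the genome, so the split of their reads is less certain.

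Among nuclear members the highest median RPKM belonged to the complex IV subunit Cox6a1 (93.0) and the catalytic-head subunits of the ATP synthase Atp5a1 (92.0) and Atp5b (91.8). Cox8a followed at 65.2, Cox7a2l at 62.5 and Cox6b1 at 60.3. Ndufa8 led complex I at 56.0, ahead of Ndufb11 (41.7) and Ndufc2 (38.3). Sdha, the flavoprotein of complex II, was at 39.9, and Uqcr11 of complex III at 45.9. Muscle, testis and duplicate forms were close to the detection limit: Cox6a2, Cox6c2, Cox8b, Ndufa11b and Ndufs6b had 22 to 79 counts over all libraries and were too low to test. Of the 99 nuclear members, 94 were tested, and all 13 mitochondrial ones were.

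As a share of all counts, the 13 mitochondrial genes took 2.82 ± 1.28% (SD, n = 4) in normoxia flox, 2.50 ± 0.412% (SD, n = 5) in normoxia KO, 2.001 ± 0.139% (SD, n = 4) in hypoxia flox and 2.03 ± 0.126% (SD, n = 5) in hypoxia KO. The 99 nuclear genes took 0.385 ± 0.0576%, 0.379 ± 0.0703%, 0.362 ± 0.0341% and 0.334 ± 0.0299% in the same groups (SD, same n). Normoxia flox 4 (4.73% mitochondrial) and normoxia KO 4 (3.20%) were the highest libraries of their groups, and they are those with neuron markers. Every other library lay between 1.85% and 2.42%. Normoxia flox 4 was the highest of its group for 13 of 13 mitochondrial and 72 of 94 nuclear members, and normoxia KO 4 for 12 of 13 and 79 of 94. In bulk RNA, fewer cells of a type and less RNA per cell cannot be told apart.

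**Figure D1:**
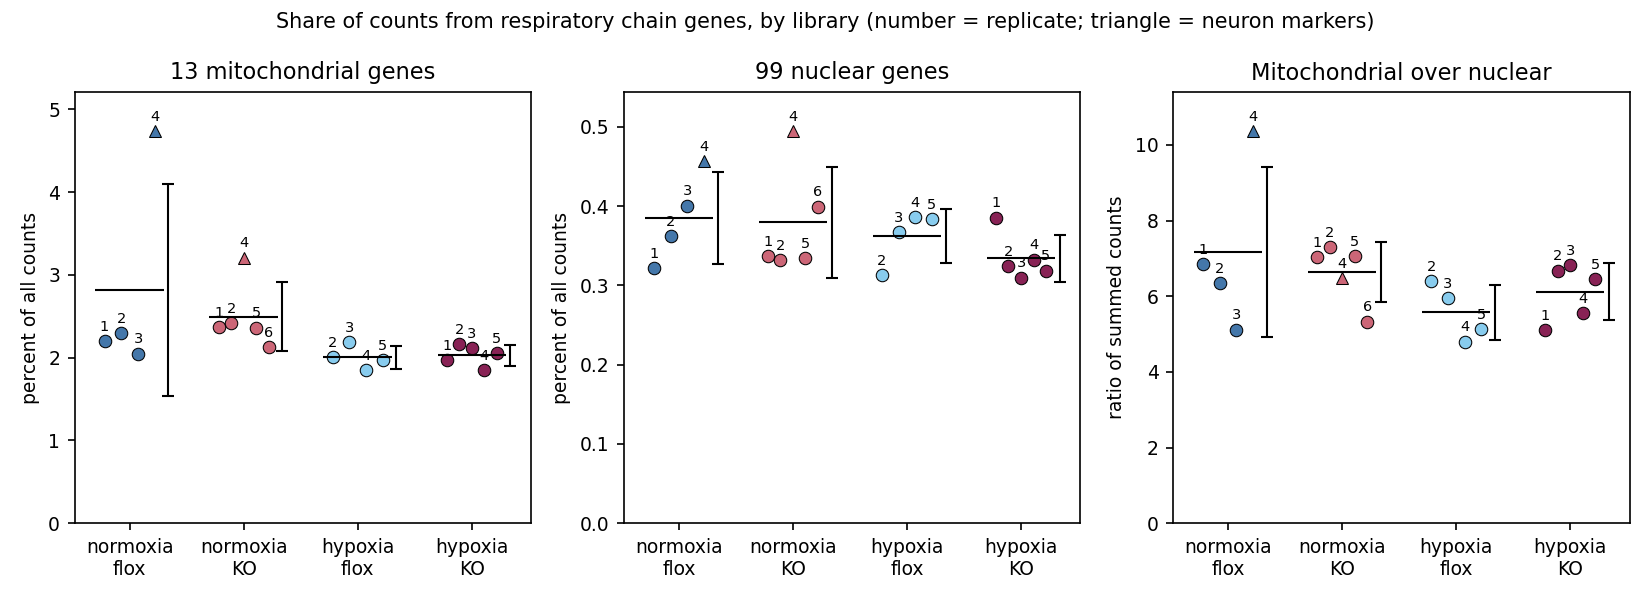
Percent of all counts from the 13 mitochondrial and the 99 nuclear members, and the ratio of both sums, for each of the 18 libraries (points, numbered by replicate; bar, mean; whisker, SD; triangles, libraries with neuron markers). Normoxia flox 4 stands at 4.73% mitochondrial counts, while the 16 libraries drawn as circles lie between 1.85% and 2.42%.

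KO was compared with flox in normoxia. All tests below come from 1 edgeR fit (quasi-likelihood F test) to the 18 libraries, with p adjusted by Benjamini-Hochberg over the 17531 genes tested. Few members passed: 1 nuclear member was higher in KO (Ndufa8) and 3 were lower (Ndufab1, Ndufb2 and Ndufaf7), all 4 of complex I. That is 4 of 94 nuclear members (4.26%), where 16.6% of all genes passed (9.54% higher, 7.03% lower). Complex I, assigned by symbol, held 47 of these 94, and 8.51% of the 47 passed, also below the share of all genes. No gene of complexes II, III, IV or V and none of the 13 mitochondrial genes passed. The median log2 difference was 0.06 for nuclear members, -0.18 for mitochondrial members and -0.02 for all genes. The mitochondrial median was 0.18 without normoxia flox 4, -0.39 without normoxia flox 3 and 0.06 without both neuron-marker libraries. At an unadjusted p under 0.05 there were 7 nuclear and 0 mitochondrial members. The 95% interval of the difference lay within 1.5-fold either way for 81 of 94 nuclear members and within 2-fold for 89. It did so for 4 and 11 of 13 mitochondrial members, whose bounds reached from -1.52 to 0.90 on the log2 scale, so larger differences in these were not excluded.

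Ndufa8, an accessory subunit of complex I, was at 35.3, 36.4, 53.8 and 49.4 CPM in normoxia flox 1 to 4. In normoxia KO 1, 2, 4, 5 and 6 it was at 56.3, 51.6, 92.8, 58.3 and 86.9 CPM. KO was 1.58-fold higher (log2 0.66 ± 0.18 SE, adjusted p = 0.0212), although KO 2 lay below flox 3. The high KO libraries 4 and 6 had immediate early scores of 7.73 and 8.04, against 10.6 or more in KO 1, 2 and 5. Flox 3 and 4, higher than flox 1 and 2, had scores of 6.87 and 8.12. With the score as a covariate the difference was 0.80 ± 0.10 (adjusted p = 4.9e-05). Without normoxia flox 1, flox 2 or KO 6 the adjusted p was 0.0749, 0.0800 and 0.0593, and without both neuron-marker libraries it was 0.0411.

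Ndufb2, an accessory subunit of the membrane arm, was at 5.22, 5.34, 5.86 and 5.79 CPM in normoxia flox 1 to 4. In normoxia KO 1, 2, 4, 5 and 6 it was at 4.89, 3.32, 4.20, 3.65 and 3.74 CPM. All 5 KO libraries lay below all 4 flox libraries, and KO was 1.41-fold lower (log2 -0.49 ± 0.14 SE, adjusted p = 0.0200). Braf overlaps Ndufb2 on the opposite strand of the annotation and did not pass (-0.19 ± 0.11, adjusted p = 0.314). Gm16272 (opposite strand) and Gm42420 (same strand) also overlap Ndufb2 and were not among the genes tested. Without the 3 libraries holding both Xist and Y-linked counts (normoxia flox 3, flox 4 and KO 4), the difference in Ndufb2 was -0.49 with an adjusted p of 0.0895.

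Ndufab1 encodes the mitochondrial acyl carrier protein, which is both a complex I subunit and part of mitochondrial fatty acid synthesis. It was at 12.6, 15.0, 16.7 and 15.7 CPM in normoxia flox 1 to 4, and at 9.89, 9.55, 12.2, 11.3 and 13.3 CPM in normoxia KO 1, 2, 4, 5 and 6. The groups overlapped in flox 1 and KO 6, and KO was 1.33-fold lower (-0.41 ± 0.13, adjusted p = 0.0452). Gm44986 overlaps Ndufab1 on the opposite strand and was also lower in KO without passing. Its difference was -0.99 ± 0.52 in normoxia (adjusted p = 0.228) and -0.77 ± 0.54 in hypoxia (adjusted p = 0.342). The Ndufab1 call passed in 17 of 31 alternatives. With normoxia flox 3, flox 4 and KO 4 left out, as above, the adjusted p was 0.177, at a difference of -0.37. It was between 0.0523 and 0.106 without any 1 of normoxia flox 2, 3 or 4, normoxia KO 1, 2 or 5, hypoxia flox 4 or hypoxia KO 3 or 5.

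Ndufaf7, a methyltransferase needed to assemble complex I, was at 27.3, 27.0, 26.8 and 25.7 CPM in normoxia flox 1 to 4 and at 22.9, 25.0, 20.3, 23.2 and 21.7 CPM in KO 1, 2, 4, 5 and 6. The groups did not overlap, as for Ndufb2, and KO was 1.18-fold lower (-0.24 ± 0.07, adjusted p = 0.0210). Ndufb2 and Ndufaf7 were the 2 of 94 nuclear members whose KO libraries all lay below the flox libraries, and none lay above, where 6.09% of all genes lay below and 8.59% above. With the replicate numbers as pairs in normoxia, a fit that also left out flox 3 and KO 5 and 6, 0 of the 4 calls passed, at adjusted p of 0.0517 for Ndufa8, 0.121 for Ndufab1, 0.232 for Ndufaf7 and 0.268 for Ndufb2, with differences of 0.65, -0.50, -0.29 and -0.46. Some unequal numbers correlated as well as equal ones, so it is not shown that equal numbers are pairs. A fit of the normoxia groups alone also called none of these 4 (adjusted p of 0.0924, 0.0718, 0.0801 and 0.0572 in the same order). It called Ndufaf4 lower instead.

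**Figure D2:**
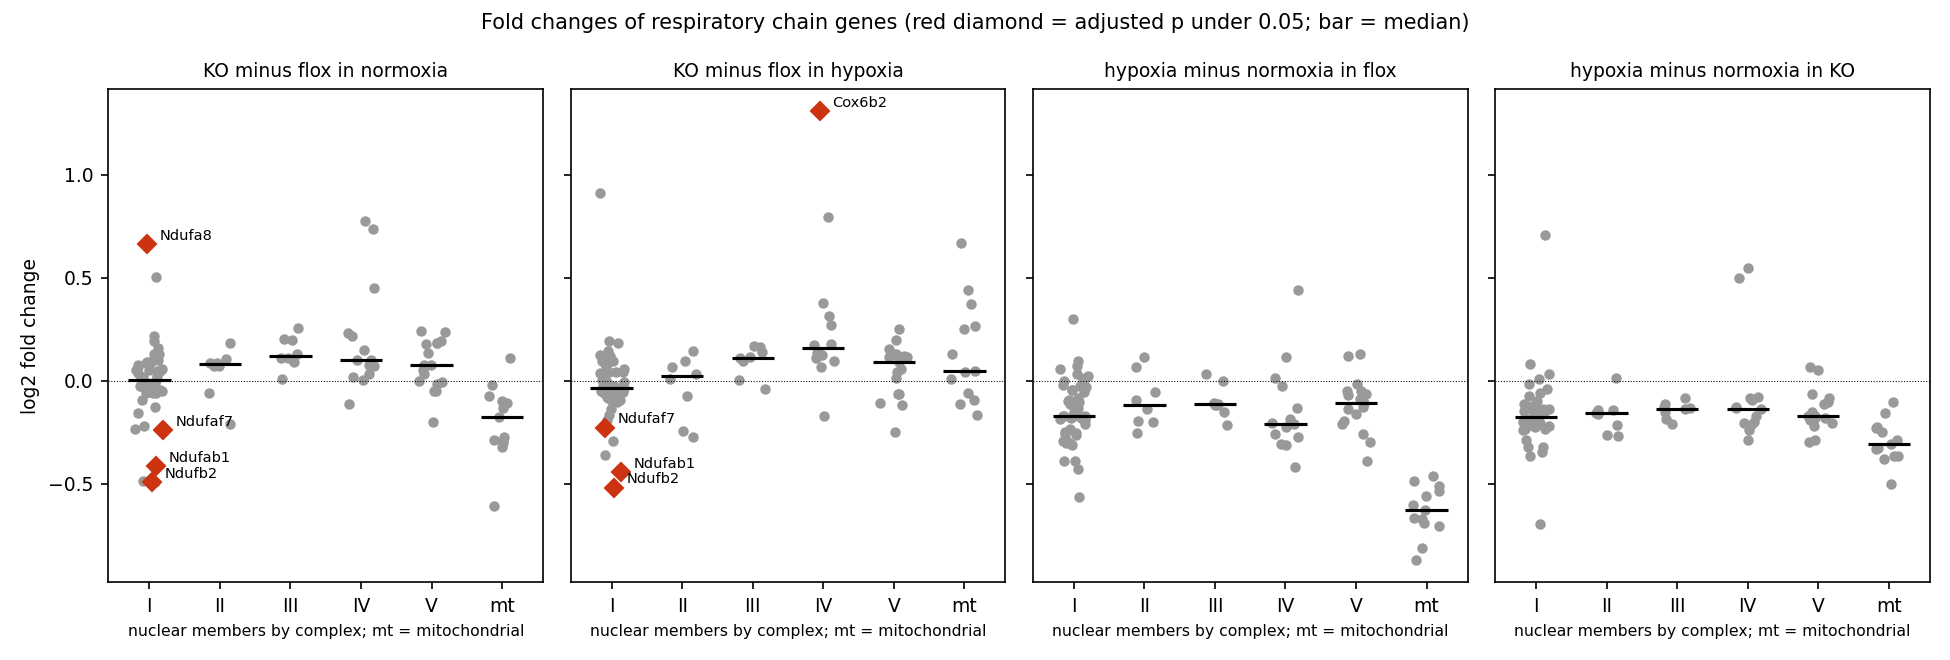
Log2 fold change (vertical axis) of every tested member in the 4 comparisons. Nuclear members are drawn by complex (I to V, assigned by symbol), beside the 13 mitochondrial genes (mt). Red diamonds passed an adjusted p of 0.05 and bars are medians. The 8 calls lie in the KO minus flox panels, and the mitochondrial genes lie below 0 in both hypoxia panels, around medians of -0.63 and -0.31.

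In hypoxia, KO against flox again gave 4 of 94 nuclear members (4.26%), where 22.3% of all genes passed (11.4% higher, 11% lower), and 0 of 13 mitochondrial members. Ndufb2, Ndufab1 and Ndufaf7 were lower, as in normoxia. Cox6b2 was higher, and Ndufa8 did not pass. Medians were 0.04 for nuclear, 0.05 for mitochondrial and -0.0021 for all genes. Intervals lay within 1.5-fold for 80 of 94 nuclear and 6 of 13 mitochondrial members, and within 2-fold for 91 and 10; 7 nuclear and 0 mitochondrial members had an unadjusted p under 0.05.

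Ndufb2 was at 5.66, 5.25, 5.60 and 6.27 CPM in hypoxia flox 2 to 5 and at 4.90, 3.72, 3.83, 3.15 and 4.29 CPM in hypoxia KO 1 to 5. The groups did not overlap, and KO was 1.43-fold lower (-0.52 ± 0.14, adjusted p = 0.0129). This call passed in each of the 30 alternatives run, with adjusted p of 0.0033 to 0.0438. Ndufaf7 was at 25.9, 29.5, 29.5 and 27.2 CPM in flox 2 to 5 and at 25.0, 23.3, 22.6, 25.0 and 23.7 CPM in KO 1 to 5, also without overlap. KO was 1.17-fold lower (-0.23 ± 0.07, adjusted p = 0.0230). Ndufb2 and Ndufaf7 were 2 of 94 with all KO libraries below, against 10.3% of all genes, and Atp5a1 was the 1 above, against 12%.

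For Ndufaf7 the adjusted p was 0.186 with the sex signal as a covariate, at a difference of -0.16. It was 0.0692, 0.0810, 0.0530 and 0.0537 without hypoxia flox 3, flox 4, KO 2 and KO 3 respectively. Equal numbers of the hypoxia libraries did not act as pairs, and in normoxia some unequal numbers correlated as well as equal ones.

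Ndufab1 was at 13.1, 13.3, 16.1 and 15.6 CPM in hypoxia flox 2 to 5 and at 14.2, 9.32, 10.3, 10.03 and 9.59 CPM in hypoxia KO 1 to 5. KO 1 lay among the flox libraries, and it is the 1 hypoxia KO library with a score under 10 (7.64). KO was 1.36-fold lower (-0.44 ± 0.14, adjusted p = 0.0274). Without hypoxia flox 4 or 5, or KO 2, 3, 4 or 5, the adjusted p was between 0.0535 and 0.0912.

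Cox6b2, the isoform of a complex IV subunit known from testis, was at 0.293, 0.411, 0.891 and 0.392 CPM in hypoxia flox 2 to 5, and at 0.916, 1.02, 1.55, 1.79 and 0.765 CPM in hypoxia KO 1 to 5. Flox 4 lay above KO 5, and KO was 2.47-fold higher (1.31 ± 0.38, adjusted p = 0.0223). By RPKM, Cox6b2 was at most 2.45% of the sum of Cox6b1 and Cox6b2 in any library. Leaving out hypoxia flox 2, 3 or 5, or hypoxia KO 3 or 4, gave an adjusted p between 0.0520 and 0.0662. In normoxia the KO difference in Cox6b2 was 0.77 ± 0.39 (adjusted p = 0.205).

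Ndufa8 was at 36.8, 44.2, 51.5 and 42.8 CPM in hypoxia flox 2 to 5 and at 51.3, 44.2, 43.1, 36.3 and 39.1 CPM in hypoxia KO 1 to 5. These ranges overlapped almost wholly (-0.03 ± 0.18, adjusted p = 0.930). The normoxia and hypoxia genotype differences in Ndufa8 differed by -0.69 ± 0.26, which did not pass over all genes (adjusted p = 0.654).

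**Figure D3:**
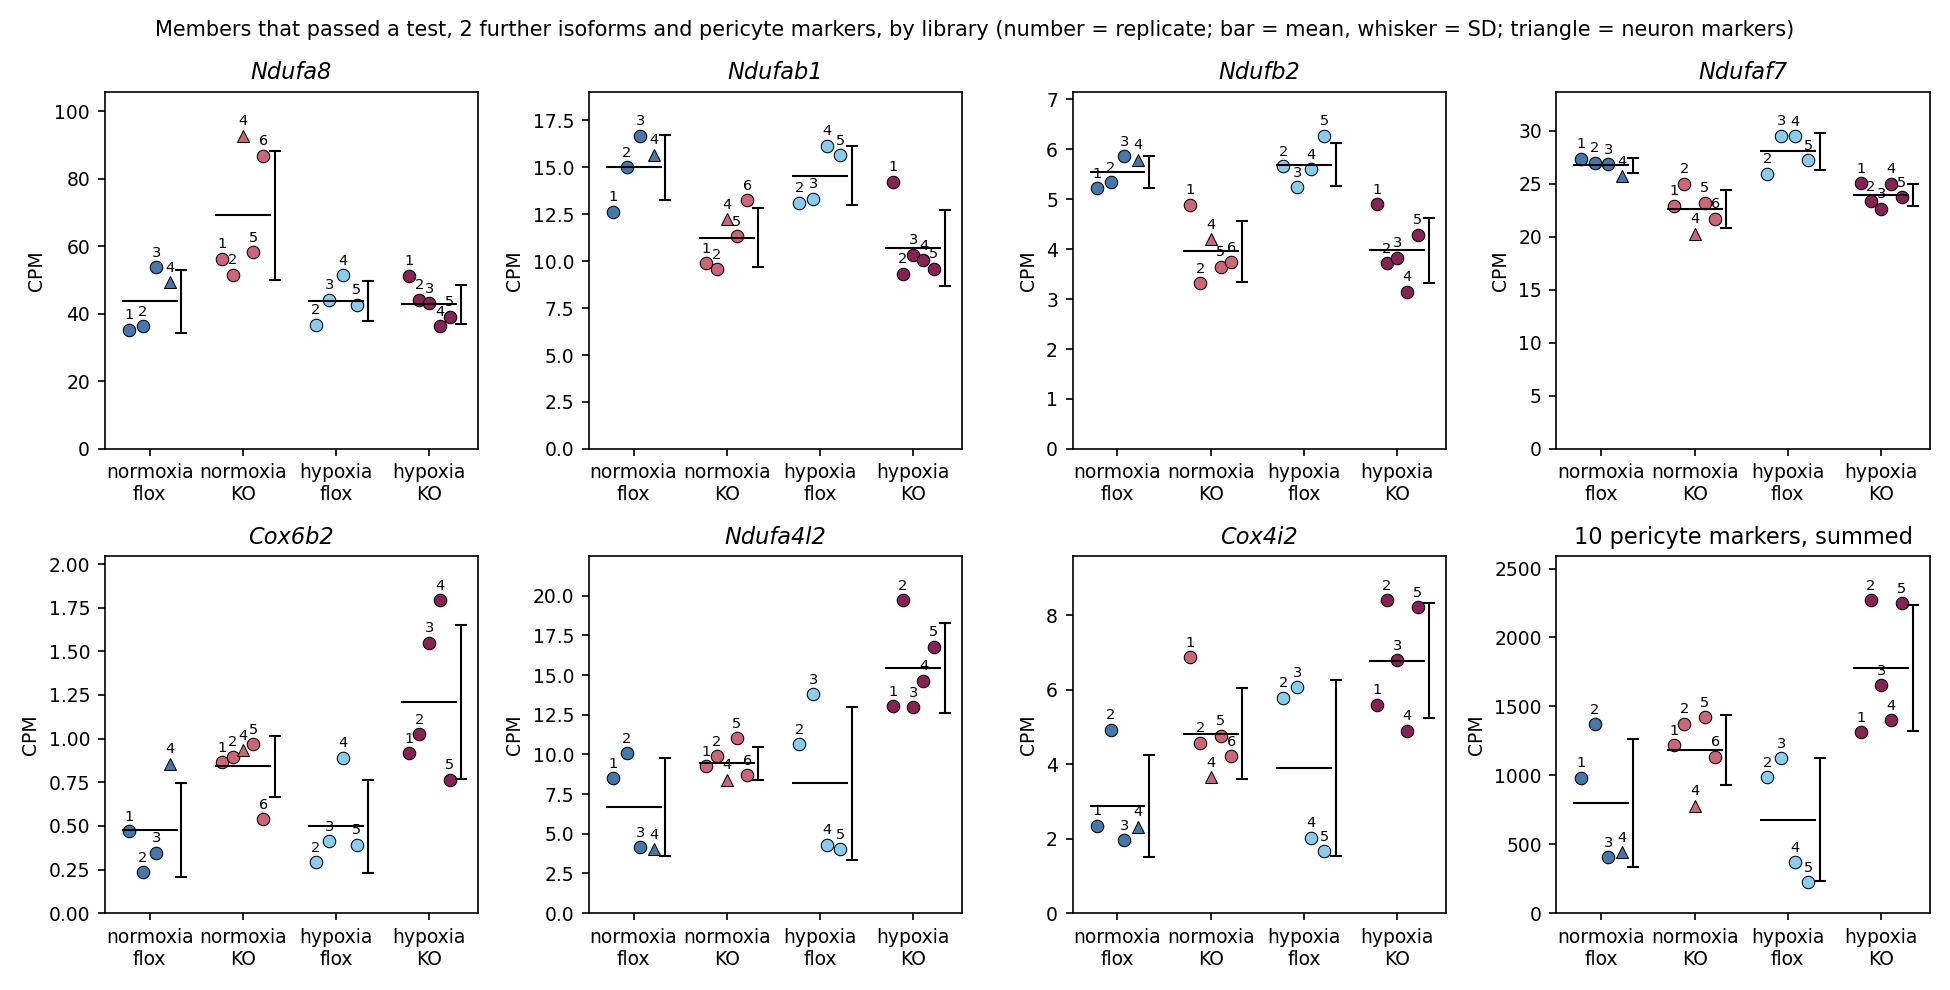
CPM of 7 nuclear members and the summed CPM of 10 pericyte markers in each of the 18 libraries, by group (points, numbered by replicate; bar, mean; whisker, SD; triangles, libraries with neuron markers). Ndufb2 and Ndufaf7 are lower in every KO library than in every flox library at the same oxygen, and Ndufa4l2 is near 4 CPM in the 4 libraries with the smallest pericyte sums.

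Hypoxia was compared with normoxia within each genotype. These comparisons share samples with the genotype comparisons above. No nuclear or mitochondrial member passed in flox, where 2.81% of all genes passed (2.34% higher, 0.462% lower), or in KO, where 1.48% passed (0.713% higher, 0.77% lower). At an unadjusted p under 0.05 there were 6 nuclear and 10 mitochondrial members in flox and 9 nuclear and 0 mitochondrial members in KO. DESeq2 called 0 mitochondrial members in any comparison and 1 nuclear member in each of these, Ndufa9 lower in flox (-0.31, adjusted p = 0.0459) and Ndufa8 lower in KO (-0.66, adjusted p = 0.00874). Nuclear medians were -0.14 in flox and -0.16 in KO, beside -0.03 for all genes in both. Without the 2 libraries with neuron markers, both normoxic, the nuclear medians were -0.04 and -0.03.

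Mitochondrial members had lower hypoxia values for 13 of 13 genes in both genotypes, with medians of -0.63 in flox and -0.31 in KO. Without the 2 neuron-marker libraries the medians were -0.18 and -0.16, and 0 of 13 passed in either genotype. Values below 0 then numbered 11 of 13 in flox and 12 of 13 in KO, mt-Nd6 being above 0 in both (0.06 and 0.04) and mt-Atp8 in flox (0.11). mt-Nd1 was at 1546, 1630, 1593 and 3694 CPM in normoxia flox 1 to 4 and at 1226, 1336, 1320 and 1456 CPM in hypoxia flox 2 to 5. All hypoxia libraries lay below all normoxia libraries, also with flox 4 set aside. The difference was -0.66 ± 0.24 (adjusted p = 0.189), and -0.26 ± 0.11 without both neuron-marker libraries (adjusted p = 0.249).

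mt-Cytb was at 2448, 2462, 2628 and 5099 CPM in normoxia flox and at 2011, 2146, 2289 and 2438 CPM in hypoxia flox, again without overlap (-0.51 ± 0.19, adjusted p = 0.209). In KO it was at 2442, 2522, 3119, 2477 and 2334 CPM in normoxia and at 2104, 2194, 2242, 1653 and 2061 CPM in hypoxia, without overlap (-0.33 ± 0.17, adjusted p = 0.403). In flox, mt-Nd1, mt-Nd2, mt-Nd3, mt-Cytb and mt-Atp6 lay wholly lower in hypoxia, 5 of 13, where 3.15% of all genes did, 5.36% lay wholly higher and 8.5% were apart in either direction. In KO it was mt-Nd4, mt-Cytb and mt-Atp6, 3 of 13, where 2.14% of all genes did. The 13 mRNAs derive from shared precursors, so their agreement is not repeated evidence. The interaction, which asks whether the genotype difference changed with oxygen, gave 0 of 94 nuclear and 0 of 13 mitochondrial members, where 0.445% of all genes passed. At an unadjusted p under 0.05 there were 1 nuclear and 0 mitochondrial members, and DESeq2 called 0 of both.

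**Figure D4:**
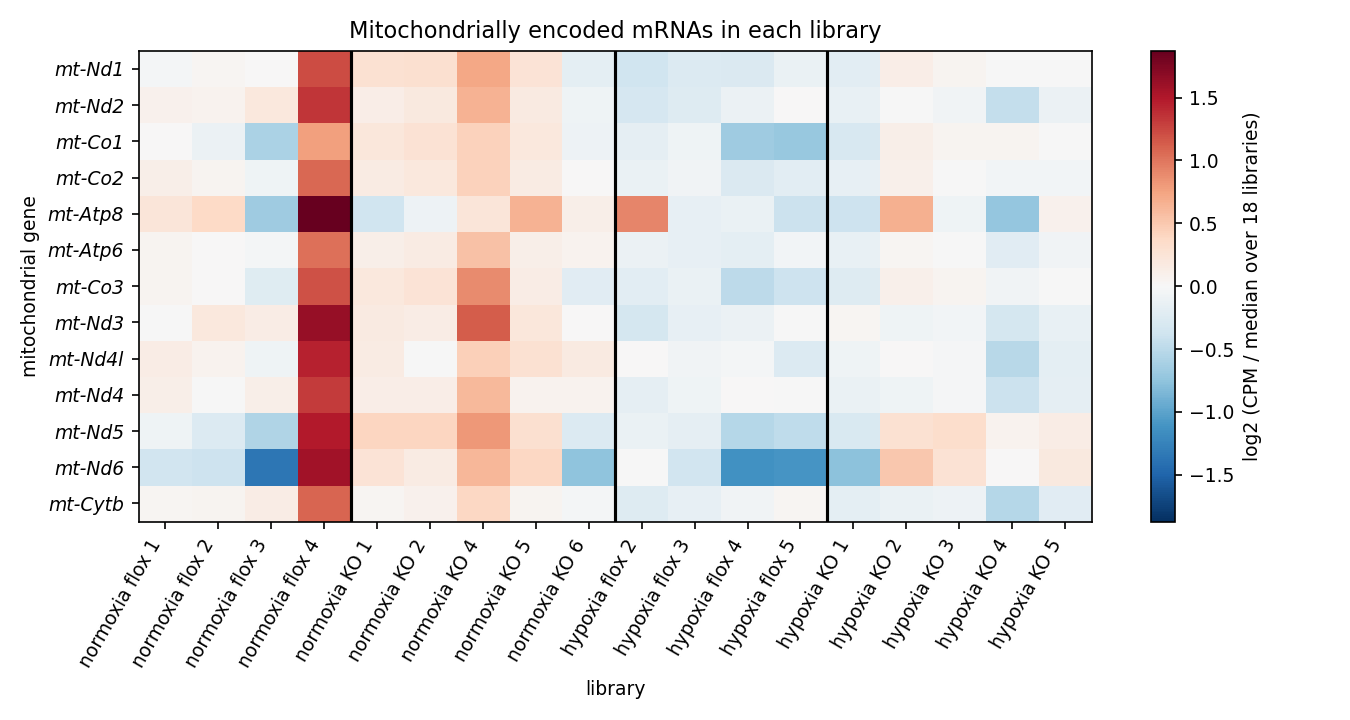
Log2 ratio of the CPM of each mitochondrial gene (rows, in genome order) to its median over the 18 libraries (columns, grouped by condition). The column of normoxia flox 4 is the highest of its group in all 13 rows, at 1.84 to 3.91 times the median of the other 3 flox libraries.

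The genotype difference in mt-Nd5 turned on 1 library. mt-Nd5 was at 878.2, 771.1, 623.5 and 2581 CPM in normoxia flox 1 to 4 and at 1220, 1225, 1626, 1140 and 774.0 CPM in normoxia KO. With flox 4 in the fit the genotype difference was -0.02 ± 0.33 (adjusted p = 0.977). Without flox 4 it was 0.63 ± 0.20 (adjusted p = 0.0347), and without both neuron-marker libraries 0.48 ± 0.18 (adjusted p = 0.0714). In hypoxia it was at 847.2, 826.4, 635.9 and 664.1 CPM in flox and at 757.7, 1123, 1158, 972.4 and 1024 CPM in KO (0.44 ± 0.33, adjusted p = 0.383).

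Between hypoxia and normoxia in KO, Ndufa8 came closest to the threshold. Its 5 hypoxia values (36.3 to 51.3 CPM) all lay below its 5 normoxia values (51.6 to 92.8 CPM), a difference of -0.69 ± 0.17 (adjusted p = 0.0582). Ndufs5, Sdha and Uqcrb were also wholly lower, making 4 of 94, where 2.14% of all genes were. Ndufa4l2 was the 1 nuclear member wholly higher, where 1.69% were. In flox, Ndufa9 and Atp5a1 were wholly lower, 2 of 94, where 3.15% of all genes were.

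Ndufa4 and Ndufa4l2 are counted under complex I here, by their symbols. Ndufa4l2, the paralog of the complex IV subunit Ndufa4 that hypoxia-inducible factor induces, is also known as a gene of brain pericytes. It was at 8.51, 10.1, 4.17 and 4.04 CPM in normoxia flox 1 to 4, at 9.27, 9.87, 8.41, 11.02 and 8.69 CPM in normoxia KO, at 10.6, 13.8, 4.31 and 4.02 CPM in hypoxia flox 2 to 5, and at 13.03, 19.7, 12.98, 14.6 and 16.8 CPM in hypoxia KO 1 to 5. The 4 libraries near 4 CPM are those with the smallest sums of 10 pericyte markers (223.3 to 442.7 CPM), against 780.8 to 2271 CPM in the other 14. All 4 are flox libraries, and their immediate early scores were 6.80 to 8.12, against 7.64 to 10.7 in the other 14. The part of pericyte RNA or of the score in the Ndufa4l2 values was not tested. KO exceeded flox in hypoxia by 0.91 ± 0.34 (adjusted p = 0.0654), where 6 of the 10 pericyte markers were higher in KO and none lower (median 1.64). DESeq2 gave an adjusted p of 0.0417, and without hypoxia flox 3 edgeR gave 0.0200 at a difference of 1.27.

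By RPKM, Ndufa4l2 made up a median of 16.0% of the sum of Ndufa4 and Ndufa4l2 in normoxia flox, 20.6% in normoxia KO, 19.1% in hypoxia flox and 33.7% in hypoxia KO. Ndufa4 itself was at 38.1 to 63.7 CPM in normoxia flox, 41.8 to 61.0 CPM in normoxia KO, 34.03 to 49.4 CPM in hypoxia flox and 36.4 to 45.3 CPM in hypoxia KO, and passed in no comparison. Cox4i2, the oxygen-regulated isoform of Cox4i1 and likewise known from pericytes, was at 2.35, 4.92, 1.95 and 2.32 CPM in normoxia flox, at 6.88, 4.58, 3.65, 4.76 and 4.22 CPM in normoxia KO, at 5.78, 6.07, 2.03 and 1.67 CPM in hypoxia flox and at 5.60, 8.40, 6.79, 4.90 and 8.21 CPM in hypoxia KO. KO and flox overlapped at both oxygen levels. It was lowest in the same 4 libraries (1.67 to 2.32 CPM), but without a gap to normoxia flox 1 (2.35 CPM), whose pericyte sum was 983.1 CPM. Its KO differences were 0.74 ± 0.37 in normoxia (adjusted p = 0.207) and 0.79 ± 0.36 in hypoxia (adjusted p = 0.132). Cox7a1, the muscle isoform of Cox7a2, did not pass either, at 0.45 ± 0.28 and 0.38 ± 0.29 (adjusted p = 0.312 and 0.396).

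The share of counts from nuclear members was apart at an immediate early score of 10. This cut was not among the planned tests, and no such split was computed for all genes. Most libraries over 10 were KO libraries, and both neuron-marker libraries lay under 10, so these cannot be told apart. As a share of all counts, the 99 nuclear members took 0.310% to 0.337% in the 9 libraries with a score over 10 and 0.362% to 0.495% in the other 9, without overlap. The mean log2 CPM of the 94 tested nuclear members was 4.22 to 4.49 on the first side and 4.39 to 4.87 on the second, ranges that overlap. The highest values of the second side were those of the neuron-marker libraries normoxia KO 4 (4.87) and normoxia flox 4 (4.75), and without them its highest was 4.60. With the score as a covariate, 13 nuclear members passed between KO and flox in normoxia (9 higher, 4 lower) and 15 in hypoxia (12 higher, 3 lower), against 21.8% and 22.1% of all genes in those fits. With the covariate and without the 2 neuron-marker libraries, a combination chosen after the data were seen, 14 passed in normoxia (8 higher) and 22 in hypoxia (19 higher), where 27.3% and 31.3% of all genes passed, so both shares of the 94 were below those of all genes. Among those higher in both comparisons, named here after their values were seen, were Cox6c (0.32 and 0.39), Cox7b (0.39 and 0.28), Uqcr10 (0.30 and 0.27) and Sdhd (0.23 and 0.21), subunits of complexes IV, III and II. Whether the score or dissociation itself acts on these genes was not tested.

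**Figure D5:**
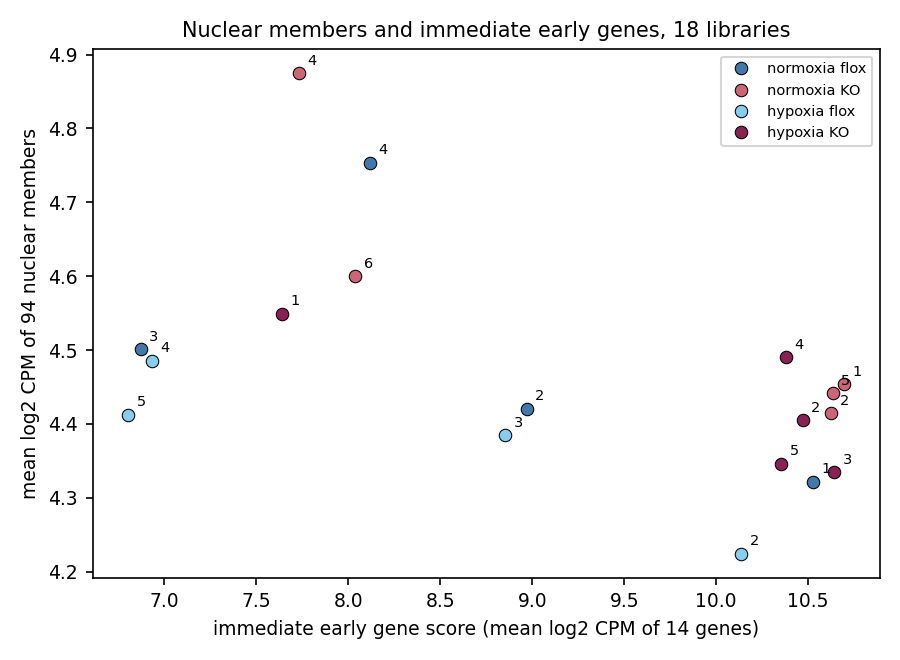
Mean log2 CPM of the 94 tested nuclear members (vertical) against the immediate early gene score (horizontal) for the 18 libraries, coloured by group and numbered by replicate. Libraries with a score over 10 lie between 4.22 and 4.49, and the others between 4.39 and 4.87.

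Other genes of mitochondrial metabolism were read from 6 lists and 2 ribosomal protein families. Among 13 tested genes linked to hypoxia, 5 were higher in KO in both genotype comparisons, and none was lower (medians 0.08 and 0.12). Pdk1, the kinase that keeps pyruvate out of mitochondria, was higher by 1.12 ± 0.11 in normoxia (adjusted p = 2.6e-06) and by 0.80 ± 0.11 in hypoxia (adjusted p = 8.5e-05). Egln3, an oxygen sensor, was higher by 4.17 ± 0.49 and 4.37 ± 0.49 (adjusted p = 2.2e-05 in both). Ldha, which makes lactate, was higher by 0.76 ± 0.09 in normoxia (adjusted p = 1.6e-05). In flox mice hypoxia itself raised Ldha by 0.47 ± 0.09 and Pdk1 by 0.56 ± 0.11 (adjusted p = 0.00692 and 0.00759), 2 of 13, and no gene of the list passed between the KO groups.

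Of 28 genes for transcription of mitochondrial DNA and handling of its RNA, 2 were lower in KO in normoxia and 5 lower with 1 higher in hypoxia (medians -0.14 and -0.18). Mtpap, which adds poly(A) tails to mitochondrial mRNAs, was lower by -0.38 ± 0.11 and -0.57 ± 0.11 (adjusted p = 0.0323 and 0.00234). Fastkd1, an RNA-binding protein of mitochondria, was lower by -0.43 ± 0.12 and -0.45 ± 0.12 (adjusted p = 0.0233 and 0.0152). Ssbp1, which coats single-stranded mitochondrial DNA, was lower in hypoxia by -0.58 ± 0.13 (adjusted p = 0.00564). No gene of this list passed between hypoxia and normoxia in either genotype. Of 13 regulators of mitochondrial content, 2 were lower in normoxia and 2 lower with 1 higher in hypoxia (medians -0.07 and -0.16). The nuclear receptor Ppard was lower by -0.76 ± 0.14 and -0.66 ± 0.14 (adjusted p = 0.000905 and 0.00258).

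Among 41 further subunits, carriers and assembly factors of the chain, 1 was lower in normoxia and 3 were lower with 1 higher in hypoxia (medians -0.03 and -0.10). Cycs, the cytochrome c that carries electrons to complex IV, was higher in hypoxia KO than in hypoxia flox by 0.39 ± 0.09 (adjusted p = 0.00448) and lower in hypoxia than in normoxia in flox by -0.39 ± 0.09 (adjusted p = 0.0284). These share the hypoxia flox libraries. Of 22 antioxidant and import genes, 3 were higher in normoxia, and 2 were higher and 1 lower in hypoxia (medians 0.10 and 0.11). Txn2, the mitochondrial thioredoxin, was higher by 0.51 ± 0.10 and 0.66 ± 0.10 (adjusted p = 0.00147 and 0.000199), and the ADP/ATP carrier Slc25a5 by 0.35 ± 0.09 and 0.31 ± 0.09 (adjusted p = 0.0103 and 0.0163).

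Of 21 genes of the tricarboxylic acid cycle and pyruvate entry, none passed in normoxia, and in hypoxia Idh2 was lower by -0.38 ± 0.10 (adjusted p = 0.0134) and Dlst higher by 0.18 ± 0.06 (adjusted p = 0.0306). Idh2 was also lower in hypoxia than in normoxia in KO (-0.40 ± 0.09, adjusted p = 0.0481). The list medians were -0.00091 and 0.04. Mitochondrial ribosomal proteins had 1 of 77 higher in normoxia, and 1 higher and 6 lower in hypoxia (medians 0.04 and -0.03). Cytosolic ribosomal proteins had 11 of 89 higher and 1 lower in normoxia, and 1 higher and 1 lower in hypoxia (medians 0.15 and -0.08). Shares for all genes were 16.6% in normoxia and 22.3% in hypoxia, as above.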

How the data were processed

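The 18 libraries hold poly(A) RNA of brain endothelial cells and were made with a stranded kit, per the labels' protocols. Reads were aligned with HISAT2 to GRCm39 and edgeR was used, per the submitters' processing notes; versions, counting tool and strand setting are not given in the sources used here. The deposited counts are whole reads per Ensembl gene (57010 genes), and the deposited RPKM hold 1 decimal and were used only to compare levels between genes. Symbols came from GENCODE M21 (91.3% of identifiers matched).

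Counts were fitted in R 4.3.3 with edgeR 4.0.16 (TMM scaling, filterByExpr, robust quasi-likelihood F test; 17531 genes), 1 model of 4 groups, Benjamini-Hochberg adjustment over all genes, threshold 0.05. Standard errors are the log2 fold change over the square root of F. The fit was also run on simulated counts drawn independently for each gene and library. These held none of the differences in cell markers, immediate early score or sex, so they could not check the fit for those. Total counts were 17.9 to 31.2 M per library. Samples were grouped by their labels. All pairs of replicates differed beyond counting noise.

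Named members are the mitochondrial ones, isoform families, passing members, the 3 with the highest RPKM per complex and those with a library that stands apart; pathway genes are up to 3 passing per list. Members and lists were chosen with earlier results of these data known. Cell type markers were 10 lists, with immediate early and sex genes. Equal replicate numbers correlated in their deviations from group means in normoxia (r = 0.579, 0.294 and 0.847 for pairs 1, 2 and 4). In hypoxia they did not (0.158, 0.0403, -0.183 and -0.339). Some unequal numbers correlated in normoxia too: flox 1 with KO 2 (0.550), flox 2 with KO 6 (0.392) and flox 3 with KO 6 (0.707). Others were negative, such as flox 1 with KO 4 (-0.647). The numbers are thus not shown to be pairs, and the labels do not say what a number means. The reported fit used no pairs, and replicate blocks were alternatives only. Alternatives were RLE scaling, TMM over nuclear genes, no or a stricter filter (1 CPM in 4 libraries), DESeq2 1.42.0, only the groups compared, the replicate block, immediate early or sex covariates and leaving out libraries.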

Additional observations from a re-analysis of the deposited data

Results flagged for a closer look

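A library counted as standing apart when its gap to the nearest other library of its group took more of the group's range than a chance level allows. Of 440 sets of values examined (a member or a summed share in a group), 66 had such a library, where chance gives about 1 in 20. Normoxia KO 4 accounted for 28 and normoxia flox 4 for 23, and these are the libraries with neuron markers. All CPM values below are the value in that library.

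In normoxia flox 4 the mitochondrial share of 4.735% stood above the group. The mitochondrial mRNAs that did were mt-Nd1 at 3694, mt-Nd2 at 2813, mt-Nd3 at 455, mt-Nd4 at 4950, mt-Nd4l at 490, mt-Nd5 at 2581, mt-Nd6 at 570.7, mt-Cytb at 5099, mt-Co2 at 5276, mt-Co3 at 4384 and mt-Atp6 at 4354 CPM. The complex I members were Ndufa12 at 24.18, Ndufa13 at 43.21, Ndufa3 at 26.95, Ndufaf1 at 9.784 and Ndufb9 at 12.11 CPM. The members of other complexes were Uqcrh at 65.96, Cox5b at 61.8, Cox6a1 at 91.44 and Cox8a at 79.7 CPM, with Atp5g1 at 36.77 and Atp5o at 5.504 CPM for complex V.

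In normoxia KO 4 the mitochondrial share of 3.204% also stood above. The mitochondrial mRNAs were mt-Nd3 at 320.1, mt-Nd4 at 3016, mt-Cytb at 3119 and mt-Atp6 at 3106 CPM. Complex I members were Ndufa10 at 57.57, Ndufa13 at 42.41, Ndufa9 at 35.45, Ndufaf5 at 6.368, Ndufb10 at 51.58, Ndufb11 at 54.04, Ndufb4 at 30.57, Ndufb5 at 28.87, Ndufs1 at 46.66, Ndufs5 at 27.89, Ndufv1 at 85.33 and Ndufv3 at 33.54 CPM. For complexes II and III they were Sdhb at 47.08, Uqcrc1 at 97.47, Uqcrfs1 at 53.24 and Uqcrh at 69.75 CPM, and for complexes IV and V Cox4i1 at 138.1 and Cox8a at 72.55, with Atp5a1 at 421.8, Atp5b at 592.2, Atp5c1 at 126.9, Atp5g1 at 36.09 and Atp5g3 at 82.23 CPM.

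Other libraries stood apart in few members. Hypoxia KO 1, the hypoxia KO library with the lowest immediate early score, was high for Ndufa5 at 13.84, Ndufab1 at 14.22, Ndufb3 at 23.1, Ndufs6 at 18.42 and Atp5j at 72.17 CPM. Hypoxia flox 2, with the highest score of its group, was high for mt-Atp8 at 169.5 and low for Ndufb5 at 15.21, Ndufc1 at 6.412, Uqcrq at 19.82 and Cox8a at 32.98 CPM. Hypoxia KO 4 was high for Ndufa12 at 21.81 CPM. Normoxia flox 1 was low for Ndufaf3 at 8.194, normoxia flox 2 high for Cox4i2 at 4.921 and normoxia flox 3 high for Ndufb8 at 9.897 CPM. Normoxia KO 6 was low for Cox6b2 at 0.5392 CPM.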

How the results depend on the processing

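The count of nuclear members passing between KO and flox in normoxia was 4. It was 7 with RLE scaling, the stricter filter, DESeq2 or without the 2 neuron-marker libraries, 2 without a filter, 1 with only the groups compared, 13 when the immediate early score was a covariate and 14 with that covariate without the neuron-marker libraries. The replicate block gave 0, over all libraries and over the normoxia pairs. In hypoxia the count was 4, and it was 2 without a filter, 15 with the covariate and 22 with the covariate without the neuron-marker libraries; the replicate block over all libraries gave 3. For hypoxia against normoxia in flox the count was 0, and it was 2 with the covariate, 5 with the covariate without the neuron-marker libraries and 1 with DESeq2. In KO it was 0, and it was 1 with the covariate, the sex signal, only the groups compared or DESeq2, and 2 with the covariate without the neuron-marker libraries. Leaving out 1 library gave 2 to 7 and 1 to 6 nuclear calls between genotypes in normoxia and hypoxia, and 0 to 1 between oxygen levels in flox and in KO.

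Mitochondrial counts were 0 in the reported fit. They were 1 with the covariate without the neuron-marker libraries (mt-Nd5 in normoxia between genotypes, mt-Nd3 between oxygen levels in flox), and 1 in hypoxia between genotypes (mt-Nd5) without the 3 libraries holding both Xist and Y-linked counts or with only the groups compared. Leaving out 1 library gave 0 to 1 in normoxia between genotypes. The difference in mt-Nd5 between genotypes in normoxia was -0.02 and changed sign and passed at 0.27 (adjusted p = 0.0152) with the covariate without the neuron-marker libraries, and at 0.63 without normoxia flox 4; it was between -0.26 and 0.63 with 1 library left out. The block over all libraries lost Ndufaf7 in hypoxia (adjusted p = 0.0574) and the 4 normoxia calls, and no other call of a named member. The cause of these changes was not tested. Of the 350 named values, 8 passed, and over the alternatives 47 calls were lost and 67 gained, in the same direction. Depth limits low members most, such as Cox6b2, Cox7a1 and Sdhaf1, with medians under 2 CPM, and the 5 members that were too low to test.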

Other observations

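Several mitochondrial mRNAs differed with the immediate early score among the 16 libraries without neuron markers. In 5 libraries the score was 6.80 to 8.04 (normoxia flox 3, normoxia KO 6, hypoxia flox 4 and 5, hypoxia KO 1), and in the other 11 it was 8.85 to 10.7. mt-Nd6, the complex I gene transcribed from the other strand, was at 74.6 to 113.6 CPM in the 5 and at 146.1 to 270.4 CPM in the 11. mt-Co3 was at 1364 to 1656 CPM in the 5 and at 1672 to 2287 CPM in the 11, also without overlap. mt-Nd5 (623.5 to 774.0 against 771.1 to 1225 CPM) and mt-Co1 (4216 to 6480 against 6137 to 8341 CPM) overlapped at their ends. mt-Cytb spanned 2104 to 2628 CPM in the 5 and 1653 to 2522 CPM in the 11. The other mitochondrial mRNAs overlapped too, such as mt-Co2 (2073 to 2496 against 2295 to 2873 CPM). In normoxia flox 4 and KO 4, the libraries with neuron markers, mt-Nd6 was at 570.7 and 293.1 CPM. These sides were set after the values were seen, and the share of all genes apart at this split was not computed. The neighbours of mt-Nd6 are read from the opposite strand, and whether the counting used strand is not given in the sources used here.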
